A study of Homo sapiens with 15 samples.

Results

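The genes described here are 43 human genes of the ATF4 amino acid response, picked by gene symbol out of the 61552 genes that were counted. Each symbol matched 1 Ensembl gene, and all 43 passed the filter on low counts in every comparison, so none was left out. By role they comprise 10 stress transcription factors and regulators, 7 enzymes of serine, asparagine and one-carbon metabolism, 5 enzymes of proline, cysteine and alanine synthesis, 7 amino acid transporters, 11 cytosolic tRNA synthetases and 3 genes of secreted proteins or receptors. ATF4 is a basic leucine zipper transcription factor at the end of the integrated stress response. When amino acids run short or proteins misfold in the endoplasmic reticulum (ER), stress kinases phosphorylate the translation initiation factor eIF2, which slows protein synthesis in general but favours translation of the ATF4 message. ATF4 then pairs with C/EBP family factors and turns on genes that import amino acids, make them and charge them onto tRNA, and in cancer cells growth factor and mTORC1 signals can feed the same program.

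RNA of MDA-MB-468 cells, an established human breast cancer cell line with abundant EGFR, was sequenced in 15 libraries, 3 in each of 5 groups. In the drug experiment all cells were serum starved for 12 h and given 10 ng/mL EGF, either alone (EGF), with 10 μM cSNX1.3 (labelled cSNX), a peptide designed to keep EGFR from joining Sorting Nexin 1 on its way to the nucleus, or with 15 μM erlotinib (labelled ERL), an inhibitor of the EGFR tyrosine kinase, for 12 h. In the line experiment endogenous EGFR was knocked down with an inducible lentiviral shRNA in both groups, and the cells were transfected with EGFR-GFP that was wildtype (WT, labelled shEGFR-WT) or carried basic residues of the nuclear localization sequence changed to aspartic acid (ΔNLS, labelled shEGFR-NLS). These cells also received EGF, at a dose that is not given in the sources used here, and nothing states whether a line is 1 clone. No library is labelled as given cPTD4, the control peptide that the paper used in other assays. Effects of any peptide thus cannot be told apart from those particular to cSNX1.3. The libraries held 22915676 to 35900649 counts on genes. Nothing says that the replicates came from separate cultures, so p-values measure the spread between these libraries, which may be technical. The chi-square per degree of freedom between replicates ran from 2.69 to 24.5, so no library was a copy of another. All 10 epithelial markers examined reached 1 CPM (counts scaled to library size) in every group. Of 3 luminal receptor genes, 2 also reached 1 CPM in every group and PGR was at 0 counts throughout. Their summed level was 52.4 to 62.5 CPM with EGF, 39.3 to 61.2 with cSNX1.3 and 99.3 to 115.6 with erlotinib. In the lines it was 29.0 to 38.3 CPM in WT and 41.5 to 42.9 in ΔNLS.

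ATF4 and a C/EBP partner bind a composite DNA element that joins one half-site of each family, written here as TGATGNAA, or TTNCATCA when read on the other strand. RefSeq promoters of GRCh38.p14, which cover 250 bases before to 50 bases after a listed start, were given for 34 of the 43 genes. The element was found in 14 of these 34 (41.2%), against 1217 of all 27305 genes with a promoter (4.46%). Because the 43 were picked as genes of the ATF4 response, this higher share is no separate evidence for the set. A gene counted as holding the element if any of its listed promoters did, so genes with more listed starts had more chances. Among all 35116 listed promoters, 3.62% held it. By role the element was most frequent in transporter genes (4 of 6) and synthetase genes (6 of 9). The following 8 windows of 30 bases are shown because they hold the same element near a listed start of genes whose calls differed. ATF3, CEBPG and SLC3A2 were called higher both with erlotinib and in ΔNLS. SLC7A1 and CARS1 were lower with erlotinib but higher in ΔNLS, and ASNS, AARS1 and NARS1 passed the test in neither. Some of these calls are weak. With erlotinib that of CARS1 was kept in 4 of 14 alternatives, and those of ATF3 and SLC7A1 in 12 of 14 each. ASNS had 68 to 175 counts per library and an uncertain level, so its lack of a call does not show that it was unchanged. Each is written 5′ to 3′ on the strand of its gene, and capitals mark the element.
ATF3: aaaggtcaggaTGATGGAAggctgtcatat
CEBPG: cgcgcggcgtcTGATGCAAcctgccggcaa
SLC3A2: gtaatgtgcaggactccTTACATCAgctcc
SLC7A1: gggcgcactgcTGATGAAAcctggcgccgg
CARS1: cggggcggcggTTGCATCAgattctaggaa
ASNS: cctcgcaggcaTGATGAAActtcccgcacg
AARS1: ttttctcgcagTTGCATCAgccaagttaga
NARS1: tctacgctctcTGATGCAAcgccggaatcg

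The windows lie at chr1:212565205-212565234 on the plus strand for ATF3, chr19:33374060-33374089 on the plus strand for CEBPG, chr11:62881719-62881748 on the plus strand for SLC3A2, chr13:29595663-29595692 on the minus strand for SLC7A1 and chr11:3057407-3057436 on the minus strand for CARS1. Those of ASNS, AARS1 and NARS1 lie on the minus strand at chr7:97872458-97872487, chr16:70289675-70289704 and chr18:57621804-57621833. The first base of the element was 191 bases before the listed start in ATF3, 42 before it in CEBPG, 68 before it in ASNS and 187 before it in AARS1, and it fell just after the start at base 8 in SLC7A1, 15 in NARS1 and 38 in SLC3A2. A match of these letters is a description of the sequence and not evidence of binding.

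Changing the nuclear localization sequence of EGFR was accompanied by a rise of most of the 43 genes. The 43 were chosen with earlier results of these data known, so the shares given here describe the set and do not test it. Of 24 other genes linked to ATF4 and tested in ΔNLS vs. WT, 8 were called higher and 8 lower. With erlotinib the 43 moved in both directions and with cSNX1.3 few of them were higher, each in a total share close to that of all genes tested. The share called higher was above that of all genes, 34.9% against 22.8% with erlotinib and 7.0% against 3.38% with cSNX1.3. Called lower were 7 with erlotinib and 0 with cSNX1.3. A gene was called when edgeR's quasi-likelihood test gave a Benjamini-Hochberg adjusted p under 0.05 over all genes tested. In ΔNLS vs. WT, 34 of the 43 genes were called higher and 2 lower (SLC38A2 and WARS1), where 41.4% of the 15805 genes tested were called, 20.4% higher and 21.0% lower. In erlotinib vs. EGF, 15 were called higher and 7 lower (51.2% of the 43), against 44.0% of 15738 genes tested, 22.8% higher and 21.2% lower. In cSNX1.3 vs. EGF, 3 (7.0% of the 43) were called higher (PPP1R15A, SESN2 and STC2) and none lower by edgeR (1 lower at an unadjusted p under 0.05 and none by DESeq2), against a background of 6.07%, 3.38% higher and 2.69% lower. The median log2 fold change of the 43 genes was 0.38 in ΔNLS vs. WT, 0.11 in erlotinib vs. EGF and 0.05 in cSNX1.3 vs. EGF, and over all genes tested it was 0.01 or less in each. Because the RNA came from whole cultures, a change in the share of cells that express a gene and a change per cell cannot be told apart.

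**Figure D1:**
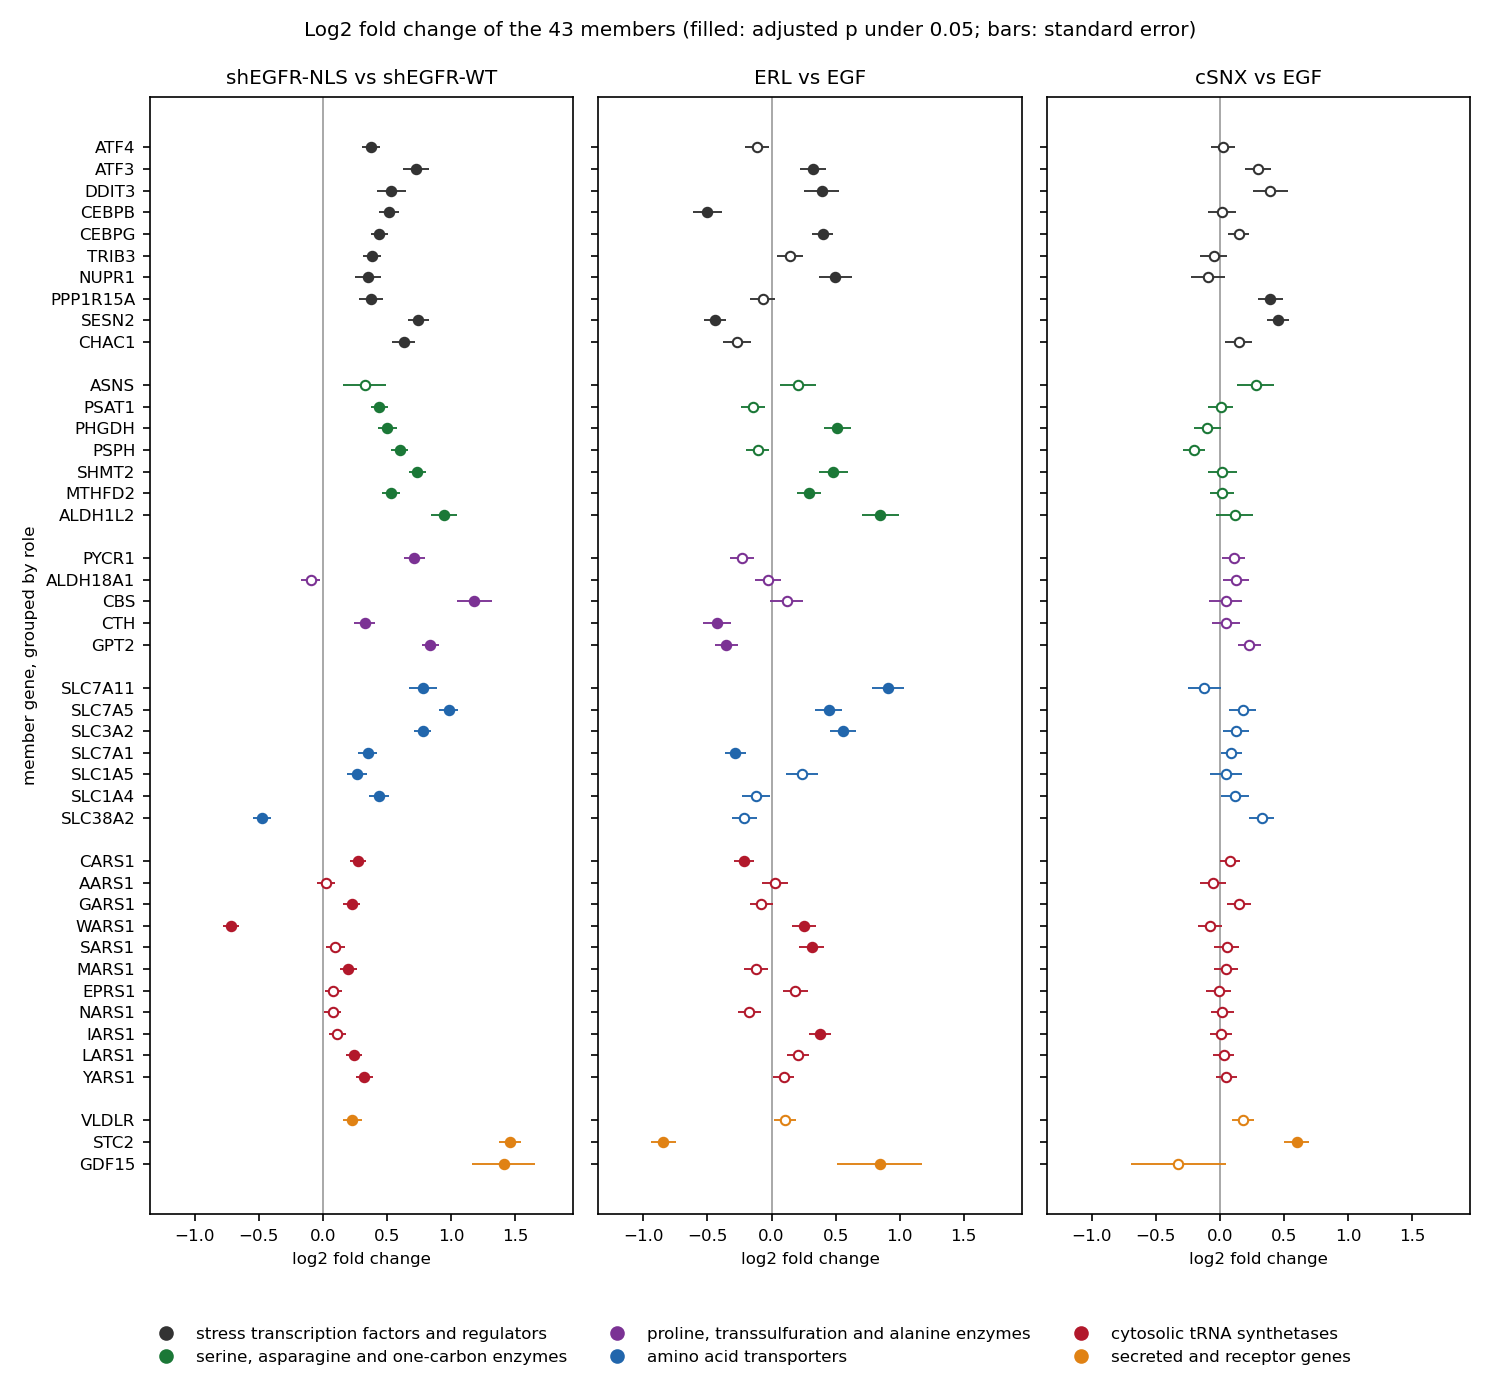
Log2 fold change (horizontal axis) of each of the 43 genes, grouped by role, in ΔNLS vs. WT (shEGFR-NLS vs shEGFR-WT), erlotinib vs. EGF (ERL vs EGF) and cSNX1.3 vs. EGF (cSNX vs EGF). Filled points have an adjusted p under 0.05 and bars are standard errors. In the left panel 40 of the 43 points lie to the right of 0, in the middle panel 24, and in the right panel most of the 34 points to the right of 0 are open.

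The values of single libraries were also compared without a model. The ΔNLS values lay entirely above the WT values for 36 of the 43 genes and entirely below for 2, where 26.0% and 26.3% of all genes tested did so. With erlotinib 19 genes lay entirely above the EGF values and 12 below (background 27.5% and 24.8%). With cSNX1.3 13 lay above and 1, PSPH, below (background 12.9% and 13.5%). Between the drugs 13 genes lay entirely higher with cSNX1.3 than with erlotinib and 14 entirely lower (background 29.2% and 31.1%).

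Among the transcription factors, ATF4 itself rose in ΔNLS but was not called with either drug. Its message measured 695, 672 and 698 CPM in the WT libraries and 915, 843 and 918 CPM in the ΔNLS libraries. Every ΔNLS library lay above every WT library, and the log2 fold change was 0.37 (SE 0.07, edgeR adjusted p = 0.000579). In the drug experiment ATF4 measured 1232, 1188 and 1151 CPM with EGF, 1244, 1247 and 1142 with cSNX1.3 and 1105, 1055 and 1145 with erlotinib. The erlotinib values sat below the EGF values by a margin that did not pass the test (log2 fold change -0.11, SE 0.09, edgeR adjusted p = 0.354), and those with cSNX1.3 overlapped EGF (0.02, SE 0.09, edgeR adjusted p = 0.922). Since ATF4 is controlled largely at translation, its message is only one layer of its activity, and protein was not measured in these files.

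Of the partners and early targets of ATF4, CEBPB fell and CEBPG rose with erlotinib, and both rose in ΔNLS. CEBPB, a C/EBP factor that can pair with ATF4, measured 182, 211 and 225 CPM with EGF and 166, 126 and 145 with erlotinib, groups that did not overlap, and it fell by 0.50 on the log2 scale (SE 0.11, edgeR adjusted p = 0.00187). In the lines it went the other way, from 89.8, 101 and 105 CPM in WT to 148, 130 and 145 in ΔNLS (log2 fold change 0.52, SE 0.08, edgeR adjusted p = 5.63e-05). CEBPG, another partner, rose with erlotinib by 0.40 (SE 0.08, edgeR adjusted p = 0.00107) and in ΔNLS by 0.44 (SE 0.07, edgeR adjusted p = 6.07e-05) on the log2 scale. ATF3, a stress-induced repressor and activator of the same family, rose in ΔNLS by 0.73 (SE 0.10, edgeR adjusted p = 2.35e-05). With erlotinib ATF3 had a log2 fold change of 0.32 (edgeR adjusted p = 0.0169), and without EGF replicate 1 this was 0.25 and no longer passed (edgeR adjusted p = 0.103). DDIT3, also called CHOP, which links prolonged stress to cell death, rose in ΔNLS by 0.53 (SE 0.11, edgeR adjusted p = 0.00137). Its call with erlotinib (0.39, edgeR adjusted p = 0.0276) was lost without EGF replicate 2 (0.109), erlotinib replicate 1 (0.129) or erlotinib replicate 3 (0.0623). Of the exonic bases of DDIT3, 39.6% overlap other genes, mainly MARS1 on the opposite strand, and the counts did not use strand.

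Of the stress regulators, SESN2 and PPP1R15A were higher with cSNX1.3 than with EGF alone, and SESN2 was lower with erlotinib. SESN2, a leucine sensor that restrains mTORC1, measured 46.1, 42.2 and 43.3 CPM with EGF, 62.0, 61.9 and 56.2 with cSNX1.3 and 32.4, 32.7 and 31.8 with erlotinib. The 3 groups did not overlap, with log2 fold changes of 0.45 for cSNX1.3 (SE 0.08, edgeR adjusted p = 0.00342) and -0.44 for erlotinib (SE 0.09, edgeR adjusted p = 0.000617). In the lines SESN2 went from 26.4, 23.6 and 25.2 CPM in WT to 44.5, 41.9 and 39.2 in ΔNLS, a log2 fold change of 0.74 (SE 0.08, edgeR adjusted p = 2e-06). PPP1R15A, the phosphatase subunit GADD34 that reverses eIF2 phosphorylation, measured 53.9, 42.8 and 50.7 CPM with EGF, 60.8, 67.8 and 64.7 with cSNX1.3 and 44.8, 45.7 and 49.9 with erlotinib. Its cSNX1.3 values lay above the others, with a log2 fold change of 0.39 (SE 0.10, edgeR adjusted p = 0.0241). That call was not held without EGF replicate 2 (edgeR adjusted p = 0.0936), EGF replicate 3 (0.0654), cSNX1.3 replicate 2 (0.133) or cSNX1.3 replicate 3 (0.0692).

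NUPR1, a small stress-induced chromatin protein, measured 51.5, 39.0 and 46.3 CPM with EGF and 70.6, 59.7 and 62.5 with erlotinib. All erlotinib values were the higher ones (log2 fold change 0.50, SE 0.13, edgeR adjusted p = 0.00565). Its smaller rise in ΔNLS of 0.35 was lost without ΔNLS replicate 1 (edgeR adjusted p = 0.0600). CHAC1, which degrades glutathione, and TRIB3, a pseudokinase that feeds back on ATF4, rose in ΔNLS by 0.63 and 0.38 on the log2 scale (edgeR adjusted p = 3.22e-05 and 0.000488) and were called with neither drug. All 10 genes of this role were called higher in ΔNLS, with a median log2 fold change of 0.48, against 4 higher and 2 lower with erlotinib (median 0.04) and 2 higher with cSNX1.3 (median 0.15).

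The enzymes of serine and one-carbon metabolism rose in ΔNLS and, for the mitochondrial steps and the first step of serine synthesis, with erlotinib. In ΔNLS 6 of the 7 were called higher (median log2 fold change 0.53), with erlotinib 4 were called higher (median 0.29) and the other 3 in neither direction, and with cSNX1.3 edgeR and DESeq2 called none (1 lower at an unadjusted p under 0.05, median 0.02). The share called was 85.7% in ΔNLS and 57.1% with erlotinib, against 41.4% and 44.0% of all genes tested. PHGDH, which commits glycolytic carbon to serine, measured 935, 1051 and 906 CPM with EGF, 970, 908 and 821 with cSNX1.3 and 1452, 1278 and 1397 with erlotinib. The erlotinib values lay above those of both other groups (log2 fold change 0.51, SE 0.10, edgeR adjusted p = 0.000922). In the lines PHGDH measured 637, 654 and 603 CPM in WT and 951, 847 and 882 in ΔNLS, again without overlap (log2 fold change 0.50, SE 0.07, edgeR adjusted p = 5.48e-05). PSAT1 and PSPH, the steps that follow PHGDH, rose in ΔNLS by 0.44 and 0.60 on the log2 scale (edgeR adjusted p = 8.65e-05 and 2.2e-06) but with erlotinib had log2 fold changes of -0.15 and -0.11 that did not pass (edgeR adjusted p = 0.231 and 0.353). PSPH has a pseudogene copy with which its reads may be shared.

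The mitochondrial folate enzymes were higher in both settings. SHMT2, which splits serine into glycine and a one-carbon unit, measured 158, 162 and 150 CPM in WT and 273, 247 and 264 in ΔNLS (log2 fold change 0.74, SE 0.07, edgeR adjusted p = 3.29e-07). In the drug experiment it measured 321, 352 and 307 CPM with EGF and 532, 428 and 410 with erlotinib, where replicate 1 was the highest and no value reached down into the EGF range (0.48, SE 0.11, edgeR adjusted p = 0.0023). ALDH1L2, which oxidizes mitochondrial formyl-folate, measured 19.1, 16.2 and 21.3 CPM in WT and 33.3, 38.8 and 37.2 in ΔNLS (0.95, SE 0.10, edgeR adjusted p = 1.47e-06). With EGF it measured 52.4, 37.2 and 52.7 CPM and with erlotinib 76.2, 95.2 and 84.8, again without overlap (0.85, SE 0.14, edgeR adjusted p = 0.000233). MTHFD2, the enzyme between them, rose in ΔNLS by 0.53 (edgeR adjusted p = 1.08e-05). Its erlotinib call (0.29, edgeR adjusted p = 0.0174) was lost without EGF replicate 1 (0.0716), EGF replicate 3 (0.0696) or erlotinib replicate 2 (0.0683). ASNS, the asparagine synthetase and a classic ATF4 target, had 68 to 175 counts per library and was called in none of the 3 comparisons (log2 fold change 0.33 in ΔNLS, SE 0.17, edgeR adjusted p = 0.133). In the GENCODE 44 annotation 96.1% of its coding bases are shared with an overlapping noncoding gene on the same strand, so reads of ASNS may have been left out when they were counted, and its level is uncertain.

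Among the enzymes of proline, cysteine and alanine synthesis, CTH and GPT2 were called higher in ΔNLS and lower with erlotinib. In ΔNLS 4 of 5 were called higher (median log2 fold change 0.71), and with erlotinib 2 were called lower (median -0.23). None of the 5 was called the opposite way in either comparison by edgeR or DESeq2, nor at an unadjusted p under 0.05. CBS, the first enzyme of the route from homocysteine to cysteine, measured 3.56, 3.23 and 4.06 CPM in WT and 9.15, 7.70 and 7.74 in ΔNLS, so that each ΔNLS value was well above each WT value (log2 fold change 1.18, SE 0.14, edgeR adjusted p = 3.41e-06). With EGF, cSNX1.3 and erlotinib CBS values overlapped, between 7.91 and 10.4 CPM. CBS has a near-identical copy in the assembly, and reads may have been split between them. GPT2, the mitochondrial alanine aminotransferase, measured 180, 178 and 188 CPM in WT and 339, 316 and 318 in ΔNLS (0.84, SE 0.07, edgeR adjusted p = 5.67e-08). Across the drug groups it measured 398, 394 and 411 CPM with EGF, 456, 495 and 461 with cSNX1.3 and 334, 291 and 317 with erlotinib. These 3 groups did not overlap, the fall with erlotinib passed the test (-0.35, SE 0.09, edgeR adjusted p = 0.00433) and the difference with cSNX1.3 did not (0.23, SE 0.09, edgeR adjusted p = 0.154). CTH, which completes cysteine synthesis, rose in ΔNLS by 0.32 (edgeR adjusted p = 0.00539) and fell with erlotinib by 0.42 on the log2 scale (edgeR adjusted p = 0.00548). PYCR1, the last step of proline synthesis, rose in ΔNLS by 0.71 (edgeR adjusted p = 2.21e-06), whereas ALDH18A1, the first step of the same route, was called in no comparison (-0.10 in ΔNLS, edgeR adjusted p = 0.309).

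The transporters that exchange or import large neutral amino acids and cystine were higher both with erlotinib and in ΔNLS. SLC7A11, the cystine importer xCT, measured 21.7, 17.7 and 20.6 CPM with EGF, between 16.6 and 19.95 with cSNX1.3 and 31.1, 42.9 and 38.7 with erlotinib. The erlotinib libraries stood above the other 6 (log2 fold change 0.91, SE 0.13, edgeR adjusted p = 2.82e-05). In the lines it measured 13.9, 11.96 and 12.5 CPM in WT and 18.6, 24.2 and 23.0 in ΔNLS, also without overlap (0.78, SE 0.11, edgeR adjusted p = 2.5e-05). SLC7A5, the leucine carrier LAT1, measured 193, 175 and 179 CPM in WT and 378, 340 and 359 in ΔNLS (0.98, SE 0.07, edgeR adjusted p = 1.95e-08). In the drug experiment its values were 501, 537 and 522 CPM with EGF, 608, 604 and 551 with cSNX1.3 and 815, 662 and 646 with erlotinib. Both drug groups lay above EGF, and the test was passed for erlotinib (0.44, SE 0.10, edgeR adjusted p = 0.00261) but not for cSNX1.3 (0.18, SE 0.10, edgeR adjusted p = 0.388).

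SLC3A2 encodes CD98, the heavy chain that carries both SLC7A5 and SLC7A11 to the membrane. It measured 194, 189 and 187 CPM in WT and 341, 309 and 327 in ΔNLS (log2 fold change 0.78, SE 0.07, edgeR adjusted p = 1.44e-07). With EGF it measured 353, 390 and 345 CPM and with erlotinib 585, 471 and 544, so the heavy chain and its partners were higher in the same libraries (0.56, SE 0.10, edgeR adjusted p = 0.000394). SLC7A1, the arginine carrier CAT1, rose in ΔNLS by 0.35 (edgeR adjusted p = 0.00104) and was lower with erlotinib by a log2 fold change of -0.28 (edgeR adjusted p = 0.0109), a call lost without erlotinib replicate 3 (0.0663). SLC1A4, a carrier of alanine, serine and cysteine, rose in ΔNLS by 0.44 (edgeR adjusted p = 0.000274). SLC1A5, the glutamine carrier ASCT2, had 0.26 in ΔNLS (edgeR adjusted p = 0.0135), which was lost without WT replicate 1 (0.0535), WT replicate 3 (0.0718) or ΔNLS replicate 1 (0.0605).

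SLC38A2, the glutamine carrier SNAT2, was the exception. It measured 332, 326 and 330 CPM in WT and 221, 252 and 237 in ΔNLS, and it fell by 0.48 on the log2 scale (SE 0.07, edgeR adjusted p = 4.27e-05). In all, 6 of 7 transporters were called higher in ΔNLS, 3 were higher and 1 lower with erlotinib (57.1%, against 44.0% of all genes tested), and edgeR called none with cSNX1.3. There 1 was higher at an unadjusted p under 0.05 and 1 by DESeq2, and SLC38A2 had the largest difference (0.32, SE 0.10, edgeR adjusted p = 0.0637).

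The tRNA synthetases, which load amino acids onto tRNA, had the smallest median shift of the 6 roles in ΔNLS. Of the 11, 5 were called higher and 1 lower in ΔNLS (median log2 fold change 0.11), 3 higher and 1 lower with erlotinib (median 0.10) and none with cSNX1.3 by edgeR, by DESeq2 or at an unadjusted p under 0.05 (median 0.03). The share called was 54.5% in ΔNLS and 36.4% with erlotinib, against 41.4% and 44.0% of all genes tested. YARS1, LARS1 and CARS1, which load tyrosine, leucine and cysteine, rose in ΔNLS by 0.32, 0.24 and 0.27 on the log2 scale (edgeR adjusted p = 0.000866, 0.00628 and 0.00314). GARS1 (0.22, edgeR adjusted p = 0.0133) passed in ΔNLS but not without WT replicate 3 (0.0797) or ΔNLS replicate 3 (0.0551). MARS1 (0.20, edgeR adjusted p = 0.0281) failed in 8 of 13 alternatives, among them those without WT replicate 1 (0.104), WT replicate 3 (0.111), ΔNLS replicate 1 (0.0743) and ΔNLS replicate 3 (0.114).

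WARS1, the tryptophan enzyme, which interferon also induces, ran against the rest. It measured 238, 252 and 237 CPM in WT and 152, 144 and 145 in ΔNLS, with no overlap, and it fell by 0.72 on the log2 scale (SE 0.07, edgeR adjusted p = 2.71e-07). With erlotinib WARS1 was higher by 0.25 (edgeR adjusted p = 0.0352), which failed in 7 of 14 alternatives, among them those without EGF replicate 1 (0.0860), EGF replicate 3 (0.171), erlotinib replicate 1 (0.0739) and erlotinib replicate 2 (0.113). IARS1, the isoleucine enzyme, measured between 305 and 309 CPM with EGF and between 382 and 427 with erlotinib, the synthetase call with that drug that held under every alternative (0.38, SE 0.08, edgeR adjusted p = 0.00194). SARS1, the serine enzyme, was higher with erlotinib by 0.31 (edgeR adjusted p = 0.0169) but not called without EGF replicate 1 (0.0687) or EGF replicate 3 (0.0966). CARS1 was lower with erlotinib by a log2 fold change of -0.22 (edgeR adjusted p = 0.0363), and it was called in 4 of 14 alternatives; it failed without any one of EGF replicates 1, 2 and 3 (0.0785, 0.0530 and 0.112) or of erlotinib replicates 2 and 3 (0.0757 and 0.0846). AARS1, EPRS1 and NARS1 were called in none of the 3 comparisons. Synthetase genes outside the 43 were called in both directions. Of 13 further cytosolic synthetase and complex genes 2 were called higher and 6 lower in ΔNLS (median -0.20) and 1 higher and 4 lower with erlotinib (median -0.22), and of 16 mitochondrial synthetases 7 were lower and 1 higher with erlotinib. In ΔNLS 4 of these 16 were higher and none lower by edgeR or DESeq2, with 3 lower at an unadjusted p under 0.05.

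STC2 had the largest difference of the 43 genes between cSNX1.3 and erlotinib. STC2 encodes stanniocalcin 2, a secreted glycoprotein of the stress response. It measured 198, 161 and 187 CPM with EGF, 248, 303 and 275 with cSNX1.3 and 102, 101 and 101 with erlotinib, 3 ranges with no overlap. The log2 fold change was 0.60 with cSNX1.3 (SE 0.10, edgeR adjusted p = 0.00115) and -0.84 with erlotinib (SE 0.10, edgeR adjusted p = 5.19e-06). In the lines it went from 64.3, 50.5 and 63.6 CPM in WT to 160, 164 and 167 in ΔNLS, the largest change of any of the 43 genes in ΔNLS vs. WT (1.46, SE 0.09, edgeR adjusted p = 1.75e-09). GDF15, a stress cytokine, had 10 to 61 counts per library, so its values carry wide counting error. It measured 0.873, 0.581 and 0.588 CPM in WT and 1.78, 1.85 and 1.76 in ΔNLS, where the ΔNLS values were the higher ones (1.41, SE 0.25, edgeR adjusted p = 0.000249). With EGF it measured 0.775, 0.743 and 0.849 CPM and with erlotinib 1.17, 1.71 and 1.41. That rise of 0.84 (SE 0.33, edgeR adjusted p = 0.0484) was called in 4 of 14 alternatives and was lost without EGF replicate 1 (0.107), 2 (0.0976) or 3 (0.0841) and without erlotinib replicate 2 (0.152) or 3 (0.0932). VLDLR, a lipoprotein receptor, rose in ΔNLS by 0.23 (edgeR adjusted p = 0.0209), which failed without WT replicate 1 (0.0700) or ΔNLS replicate 3 (0.0659).

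**Figure D2:**
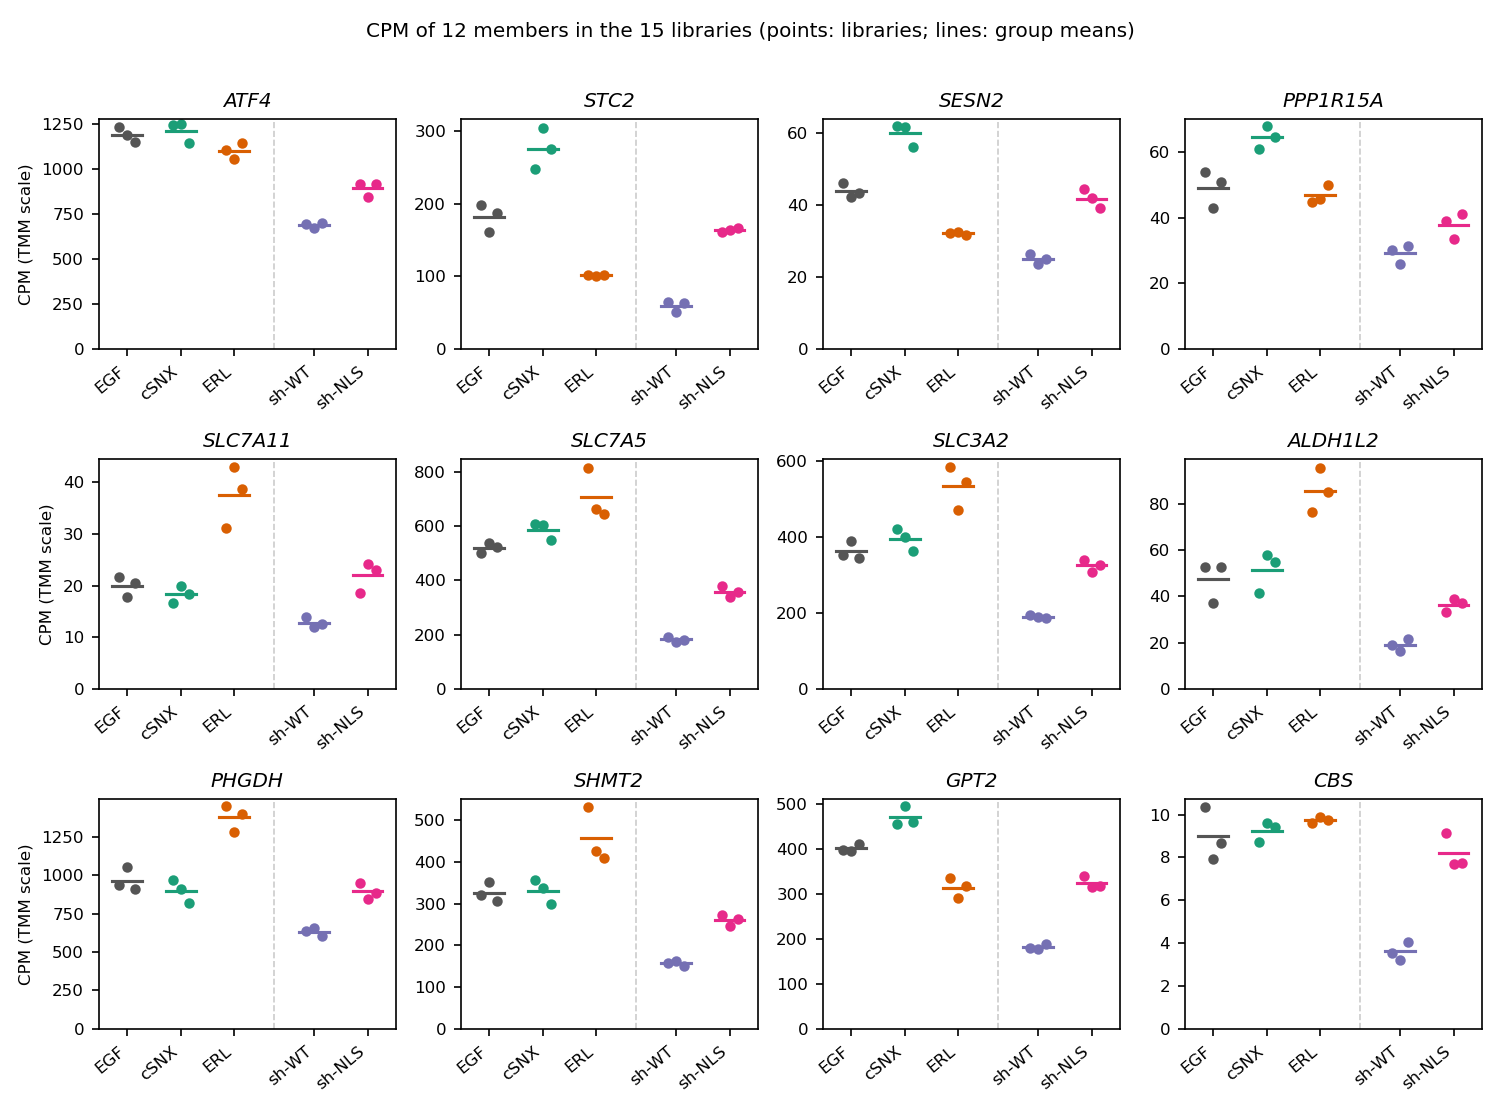
CPM (vertical axis, from 0, TMM scale) of 12 of the 43 genes in the 15 libraries, 3 points per group with a line at the group mean, and a dashed line between the drug experiment (EGF, cSNX, ERL) and the line experiment (sh-WT for shEGFR-WT, sh-NLS for shEGFR-NLS), whose levels are not on one scale. STC2 and SESN2 are highest with cSNX1.3 and lowest with erlotinib, SLC7A11, PHGDH and ALDH1L2 are highest with erlotinib, and all 12 genes lie higher in ΔNLS than in WT.

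Taking each library on its own, the median log2 ratio of the 43 genes to their control group's mean was 0.41, 0.34 and 0.42 in the 3 ΔNLS libraries, with 40, 39 and 40 of 43 genes above the WT mean. In the WT libraries themselves the median stayed between -0.02 and 0.02. With erlotinib it was 0.10, 0.09 and 0.12, with 25, 24 and 24 genes above the EGF mean. By sign alone rises and falls were thus near balance, while among called genes 15 were higher and 7 lower. The cSNX1.3 libraries did not sit together, at 0.15, 0.08 and -0.03 with 38, 31 and 17 genes above the EGF mean, and the EGF libraries ran from -0.03 to 0.03.

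**Figure D3:**
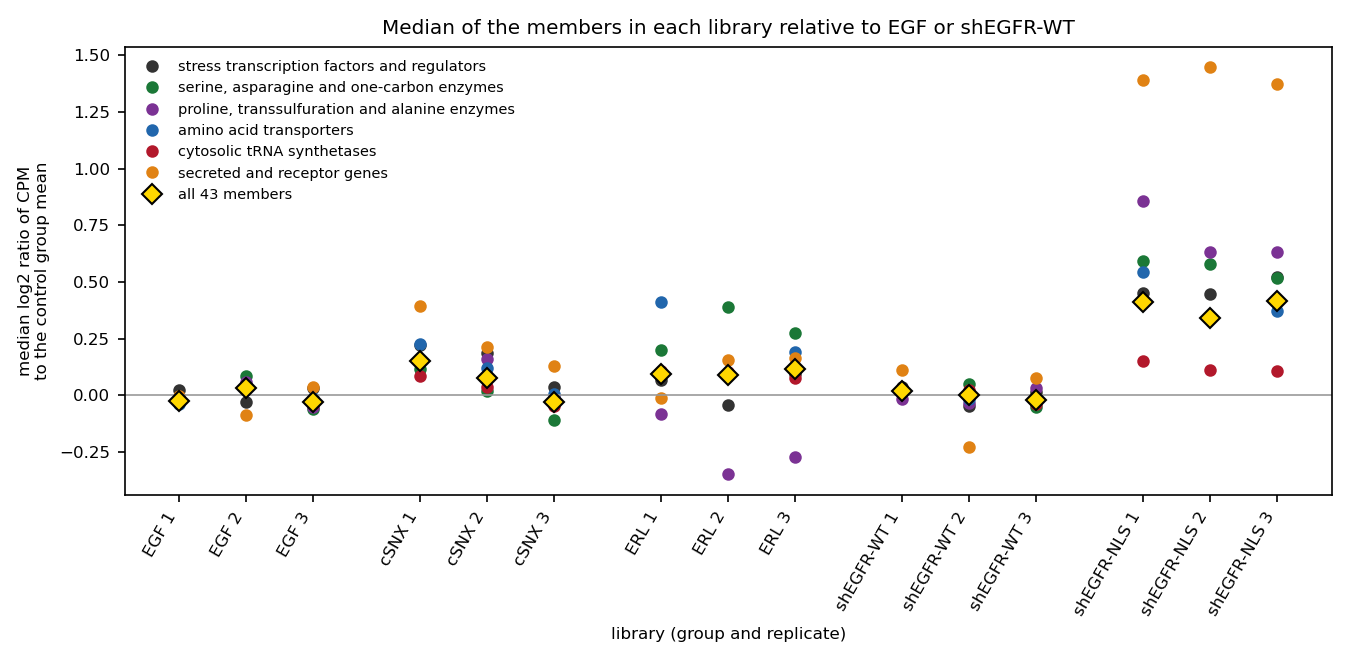
Median log2 ratio of CPM to the mean of the control group (EGF for the drug experiment, shEGFR-WT for the lines; vertical axis) in each of the 15 libraries (horizontal axis), for all 43 genes (diamonds) and for each role (circles). The diamonds of the 3 ΔNLS libraries lie at 0.34 to 0.42 and those of the 3 cSNX1.3 libraries spread from -0.03 to 0.15, and the 3 secreted and receptor genes lie highest in ΔNLS.

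The overlap of calls was split by direction. Of the 15 genes called higher with erlotinib and the 34 called higher in ΔNLS, 12 were in both: ATF3, DDIT3, CEBPG, NUPR1, PHGDH, SHMT2, MTHFD2, ALDH1L2, SLC7A11, SLC7A5, SLC3A2 and GDF15. All 7 genes called lower with erlotinib (CEBPB, SESN2, CTH, GPT2, SLC7A1, CARS1 and STC2) were among those called higher in ΔNLS. The 3 genes called higher with cSNX1.3 were also higher in ΔNLS. Since 79.1% of the 43 genes were called higher in ΔNLS, large overlaps with that list follow from its size. The same overlaps over all genes tested were not counted. ASNS, ALDH18A1, AARS1, EPRS1 and NARS1 were called in none of the 3 comparisons.

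Whether the effects differed in size was tested as an interaction over all 15 libraries. The ΔNLS effect was greater than the erlotinib effect for 19 of the 43 genes and smaller for 2, WARS1 and IARS1 (background 44.7% of 16524 genes tested, 22.6% greater and 22.1% smaller). The difference was 2.31 on the log2 scale for STC2 (SE 0.14, edgeR adjusted p = 3.86e-11), 1.20 for GPT2 (SE 0.11, edgeR adjusted p = 2.05e-08) and 1.19 for SESN2 (SE 0.11, edgeR adjusted p = 3.15e-08). SHMT2, SLC7A11 and CEBPG are examples of genes that rose in both. Their differences of 0.26 (SE 0.14, edgeR adjusted p = 0.135), -0.12 (SE 0.17, edgeR adjusted p = 0.599) and 0.05 (SE 0.10, edgeR adjusted p = 0.705) did not pass, which does not show that the effects were equal. These examples do not stand for every gene that rose in both. The ΔNLS effect was greater than the cSNX1.3 effect for 20 genes and smaller for 2, SLC38A2 and WARS1 (background 23.1%, 11.3% greater and 11.8% smaller). By role the greater ones were 6 of the 7 serine and one-carbon enzymes, 6 of the 10 stress factors, 3 of the 5 proline, cysteine and alanine enzymes, 3 of the 7 transporters, 2 of the 3 secreted and receptor genes and none of the 11 synthetases by edgeR (3 at an unadjusted p under 0.05 and 2 by DESeq2). For SESN2 and PPP1R15A, which were higher with cSNX1.3, the difference between ΔNLS and cSNX1.3 was 0.29 (SE 0.11, edgeR adjusted p = 0.0631) and -0.02 (SE 0.14, edgeR adjusted p = 0.956), and for STC2 it was 0.86 (SE 0.13, edgeR adjusted p = 5.29e-05).

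Set directly against each other, cSNX1.3 and erlotinib left 12 of the 43 genes higher and 13 lower with cSNX1.3, against a background of 56.1%, 27.6% higher and 28.5% lower, where 58.1% of the 43 were called. The higher ones included STC2 (log2 fold change of cSNX1.3 vs. erlotinib 1.44, SE 0.10, edgeR adjusted p = 7.03e-09), SESN2 (0.89, SE 0.09, edgeR adjusted p = 3e-07), GPT2 (0.58, edgeR adjusted p = 4.26e-05) and CEBPB (0.52, edgeR adjusted p = 0.000964). Those lower with cSNX1.3 included SLC7A11 (-1.03, SE 0.13, edgeR adjusted p = 4.51e-06), ALDH1L2 (-0.73, edgeR adjusted p = 0.000476) and PHGDH (-0.61, edgeR adjusted p = 0.000123). The EGF libraries do not enter this contrast.

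Genes of parallel stress branches and upstream of ATF4 were counted in the same way. The background stays 41.4% of all genes called in ΔNLS vs. WT, 44.0% in erlotinib vs. EGF and 6.07% in cSNX1.3 vs. EGF. Of 22 targets of the other ER stress branches, driven by XBP1 and ATF6, 1 was called higher and 10 lower in ΔNLS (median log2 fold change -0.17). HSPA5, the ER chaperone BiP, fell in ΔNLS by 0.70 on the log2 scale (SE 0.08, edgeR adjusted p = 3.05e-06), and XBP1 itself fell by 0.57 (SE 0.10, edgeR adjusted p = 0.000189). With erlotinib 5 of these 22 were called higher, among them XBP1 (0.85) and HERPUD1 (0.69), and 12 lower, among them SDF2L1 (-0.94) and MANF (-0.68), with a median of -0.34. With cSNX1.3 HSPA5 (0.64, SE 0.13, edgeR adjusted p = 0.00505), HYOU1 (0.45) and PDIA4 (0.31) were called higher, and the median was 0.21. None was lower by edgeR or DESeq2, and 1 was at an unadjusted p under 0.05.

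Of 15 genes of the eIF2 kinases, the exchange factor and their regulators, 4 were called lower in ΔNLS and none higher by edgeR, by DESeq2 or at an unadjusted p under 0.05. The share called, 26.7%, was below the 41.4% of all genes, and the lower ones included IMPACT, an inhibitor of the amino acid sensing kinase (-0.48, edgeR adjusted p = 0.000111). With erlotinib 1 was higher, IMPACT itself (0.80, edgeR adjusted p = 1.44e-05), and 5 were lower, and with cSNX1.3 EIF2AK4, the amino acid sensing kinase GCN2, was higher (0.34, edgeR adjusted p = 0.0199). The phosphorylation of eIF2 was not measured in these files. Of 17 other basic leucine zipper factors, 4 were higher and 7 lower in ΔNLS, 7 higher and 5 lower with erlotinib, and 1 higher and 2 lower with cSNX1.3, and FOS, an early EGF target, fell in all 3, by 0.60, 3.18 and 1.20 on the log2 scale (edgeR adjusted p = 0.00137, 1.87e-07 and 0.00255). Of 22 mTORC1 regulators and sensors 6 were higher and 5 lower in ΔNLS, 4 higher and 4 lower with erlotinib, and DDIT4, a stress-induced inhibitor of mTORC1, was higher with cSNX1.3 (0.43, edgeR adjusted p = 0.0138) and lower with erlotinib (-0.81, edgeR adjusted p = 8e-06).

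**Figure D4:**
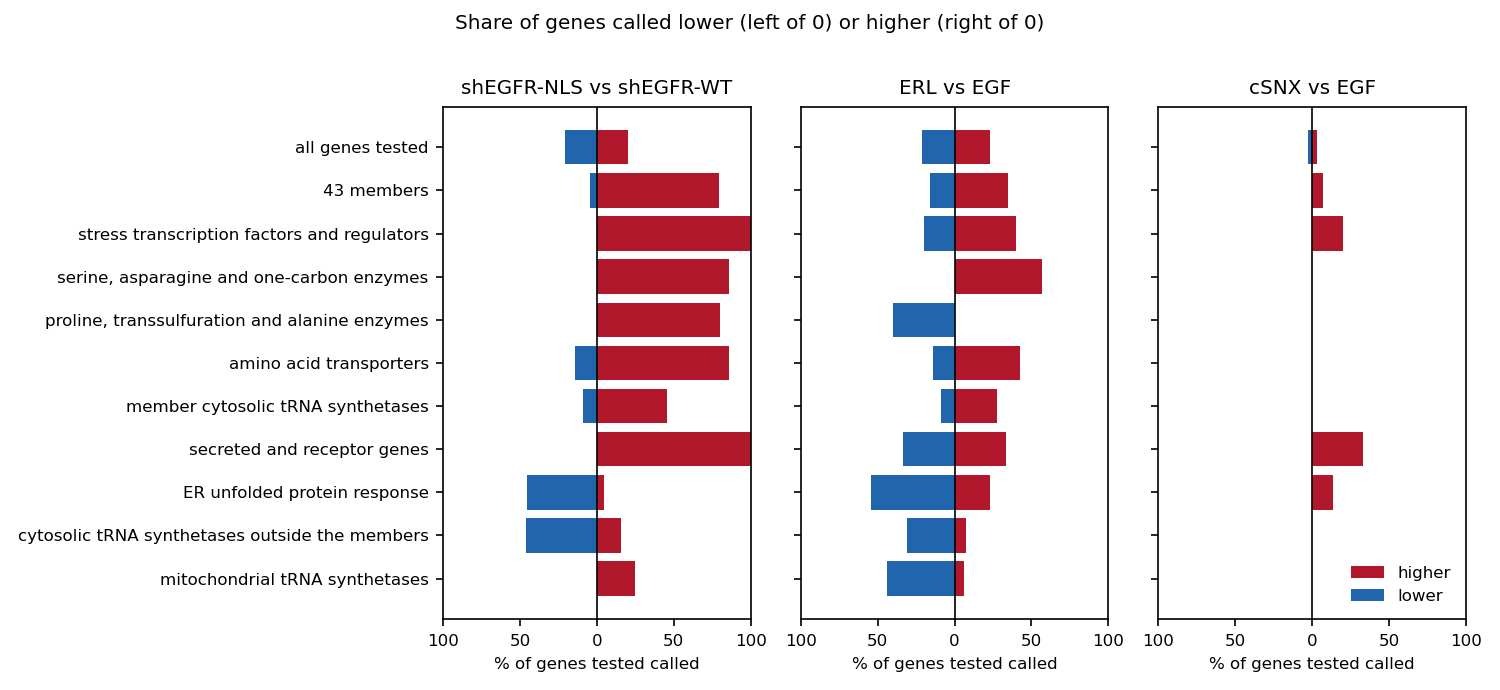
Percent of the genes tested that were called higher (red, right of 0) or lower (blue, left of 0) in ΔNLS vs. WT, erlotinib vs. EGF and cSNX1.3 vs. EGF, for all genes, the 43 genes, their 6 roles and 3 lists outside them. In ΔNLS 79.1% of the 43 genes were called higher against 20.4% of all genes, while the ER unfolded protein response genes lean to the lower side.

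Genes of the same processes that lie outside the 43 were called in both directions. The background in each comparison is the one given above. Of 24 other genes linked to ATF4 and tested in ΔNLS vs. WT, 8 were higher and 8 lower (median log2 fold change -0.01), with TRIB1 (0.90) and ADM2 (0.85) among the higher and TSLP (-1.39) among the lower. With erlotinib 9 of 25 were higher, including HMOX1 (1.02), and 5 lower, including NDRG1 (-1.17) and VEGFA (-1.13), and with cSNX1.3 3 were higher, including NDRG1 (0.83) and ERO1A (0.46). Of 20 further amino acid transporters 7 were higher and 6 lower in ΔNLS. SLC38A3, a glutamine carrier, measured 1.88, 1.87 and 1.87 CPM in WT and 7.31, 6.88 and 7.99 in ΔNLS (1.98, SE 0.14, edgeR adjusted p = 1.63e-08), it was higher with erlotinib (1.29, edgeR adjusted p = 2.42e-05) and lower with cSNX1.3 (-1.11, edgeR adjusted p = 0.00377). SLC6A14, a broad amino acid importer, measured 302, 323 and 318 CPM in WT and 82.2, 86.0 and 80.5 in ΔNLS, so it fell by 1.92 on the log2 scale (SE 0.07, edgeR adjusted p = 7.06e-12), and erlotinib lowered it too (-1.50, edgeR adjusted p = 4.26e-08). Of 14 further one-carbon and glycine genes 3 were higher and 2 lower in ΔNLS, 2 higher and 6 lower with erlotinib and 2 higher and 1 lower with cSNX1.3. Of the further genes of amino acid synthesis and breakdown 5 of 17 were higher and 3 lower in ΔNLS, among them GLUL, the glutamine synthetase (-0.99, edgeR adjusted p = 1.4e-07), 5 of 16 were higher and 4 lower with erlotinib, and with cSNX1.3 edgeR and DESeq2 called none (1 higher at an unadjusted p under 0.05).

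The genes that hold the composite element were not called higher more often than the others. In ΔNLS 10 of the 14 genes that hold it were called higher (median log2 fold change 0.30), and 15 of the 20 genes with a promoter entry but no element (median 0.41). With erlotinib the counts were 4 of 14 and 7 of 20, and with cSNX1.3 3 of 20 and none of 14 by edgeR or DESeq2 (1 of 14 at an unadjusted p under 0.05). These counts are descriptions of small sets, and the window of 300 bases leaves out more distant sites.

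EGFR, the targeted gene, was itself not level between the lines. Its message measured 1445, 1168 and 1467 CPM in WT and 1711, 1781 and 1766 in ΔNLS (log2 fold change 0.37, SE 0.09, edgeR adjusted p = 0.00367), and reads of the endogenous and the introduced gene were not told apart. The calls in ΔNLS thus went with a higher EGFR message, and the part of that difference in the result was not tested. EGFR did not differ by the test between EGF and erlotinib (0.00, SE 0.11, edgeR adjusted p = 0.995) and was 0.38 higher with cSNX1.3 (SE 0.11, edgeR adjusted p = 0.0622). The summed level of the 10 epithelial markers was 23614 to 26832 CPM in WT and 15707 to 18842 in ΔNLS, and 24538 to 29607 with EGF, 28986 to 35091 with cSNX1.3 and 15393 to 17078 with erlotinib. The summed level of 12 markers of immune, endothelial, fibroblast and liver cells was 44.8 to 55.7 CPM in WT and 54.1 to 60.1 in ΔNLS, and 34.5 to 36.7 with EGF, 33.8 to 36.1 with cSNX1.3 and 54.1 to 61.4 with erlotinib, with 3 or 4 of the 12 reaching 1 CPM in a group and the fibroblast gene DCN at 0 throughout. The part of these marker levels in the results was not tested.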

How the data were processed

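After trimming, the authors mapped the reads with STAR to GRCh38, and featureCounts then assigned read pairs to Ensembl genes, ignoring strand. The deposited values are raw counts, not normalized, for 61552 genes, of which 61399 had a symbol in the gene name table used. The annotation release used by the authors is not given in the sources used here. Overlapping genes on opposite strands are therefore not told apart. The submitters' processing notes name DESeq2.

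The tests were run in edgeR 4.0.16 under R 4.3.3 (TMM scaling, filterByExpr by group, robust quasi-likelihood test, Benjamini-Hochberg over all genes tested, threshold 0.05). The 9 drug libraries and the 6 line libraries were fitted separately and the interactions over all 15. CPM are on the TMM scale of each experiment, so levels compare only within an experiment. DESeq2 1.42.0 was an alternative. The scripts were tested on simulated data. The 43 genes, the other lists and the tests were chosen with earlier results of these data known, so no test over a list was made. Values in every library are given for the 10 called genes with the largest absolute change in each of 3 comparisons and for ATF4, and other genes by role. Those of WARS1, SLC38A2, SLC38A3 and SLC6A14 were added after they were seen. From lists outside the 43, up to 4 called genes with the largest change per comparison could be named. Intervals and errors cover only counting error and the spread between libraries. Promoters and their sequences are from RefSeq. No entry was given for ALDH1L2, GPT2, LARS1, NUPR1, PSPH, PYCR1, SHMT2, SLC7A11 and YARS1.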

Additional observations from a re-analysis of the deposited data

Results flagged for a closer look

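For 8 genes the effect in ΔNLS vs. WT and the effect in erlotinib vs. EGF were each called with opposite signs, and the interaction test of their difference also passed. Of all genes tested, 41.4% were called in ΔNLS vs. WT, 44.0% in erlotinib vs. EGF and 44.7% in the interaction. The share of all genes that meets these conditions together was not counted, so the 8 are not shown to be particular to this set. The ΔNLS effect minus the erlotinib effect was 2.31 on the log2 scale for STC2, 1.20 for GPT2, 1.19 for SESN2, 1.03 for CEBPB, 0.76 for CTH, 0.64 for SLC7A1, 0.50 for CARS1 and -0.96 for WARS1. The 2 effects come from different control groups, which also differ in the knockdown of endogenous EGFR. For SLC7A1, CARS1 and WARS1 the erlotinib effect on its own did not pass when single libraries were left out.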

How the results depend on the processing

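None of the 43 genes' calls in ΔNLS vs. WT, erlotinib vs. EGF and cSNX1.3 vs. EGF changed sign under any alternative. Single genes outside these calls were not compared across alternatives. At an adjusted p under 0.01, 14 genes were called in erlotinib vs. EGF in place of 22, since the stricter threshold drops calls. The share of all genes tested fell from 44.0% to 30.4%. Leaving out each library in turn gave 33 to 36 calls in ΔNLS vs. WT, 16 to 21 in erlotinib vs. EGF (16 without EGF replicate 1), 2 to 3 in cSNX1.3 vs. EGF, 22 to 27 in cSNX1.3 vs. erlotinib, and 18 to 22 and 18 to 25 in the differences of the ΔNLS effect from the erlotinib and the cSNX1.3 effect. Over all genes tested the share called moved as well. In the same order it was 32.1% to 40.6%, 35.0% to 42.0% (35.0% without EGF replicate 1), 3.26% to 5.51%, 47.8% to 54.2%, 39.7% to 44.7% and 18.3% to 24.7%. Of the called genes, 31 of 36, 14 of 22 and 2 of 3 passed under every alternative, the stricter threshold included. Same-numbered libraries did not deviate together (correlation of deviations from the group means -0.23 to 0.29 over 9 drug pairs and -0.11 to -0.02 over 3 line pairs), so the numbers do not pair them. Some differently numbered libraries had larger values, such as EGF replicate 2 with cSNX1.3 replicate 1 (0.43) and with cSNX1.3 replicate 3 (-0.38). Whether libraries share a batch under other numbers was not tested. With the replicate block the counts were 35, 20, 3, 24, 19 and 19 in the order above. The shares of all genes tested were then 36.5%, 42.6%, 5.34%, 54.9%, 42.3% and 20.1%. DESeq2 as the test called 36, 22 and 4 in the first 3 comparisons. Its background was 19.6%, 21.1% and 3.66%, counted over more genes, since genes with low counts were kept. Fitting only the 2 groups compared is the same fit for the lines. The median of all genes reached at most 0.036 in size on the log2 scale under the alternatives that keep all libraries. GDF15 had 10 to 61 counts per library, so counting error is widest there.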
